A study of Homo sapiens with 9 samples.

Results

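The transcriptome of HEK293T, an immortalized line from human embryonic kidney, was compared between cells kept for 5 h in 10 µM MsOc3HBC and cells kept in the vehicle DMSO, with poly(A) RNA from 3 biological replicates of each. MsOc3HBC is the reactive form of HBC, a small dye that lights up when it binds the Pepper RNA aptamer. Its short alkyl handle ends in a mesylate, a leaving group that lets the ligand alkylate a guanine of the aptamer. The question put to these cells was whether such a ligand alters endogenous transcripts, and the methods name no aptamer plasmid for them. The 3 libraries of HBC530, a ligand of the same dye family without a reactive handle, were made at the same concentration and time and are used here only beside MsOc3HBC. All 9 libraries come from the same cell line, and the labels give no batch or passage. A gene was included when its raw counts averaged more than 10 over the 3 MsOc3HBC and 3 DMSO libraries, which left 17309 of the 57500 genes counted. PEF1-AS1 lay just inside that limit with a mean of 10.17 counts, and WDR64 just outside it with a mean of 10.0.

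Alkylating and electrophilic compounds can reach several sensors of the cell, each with its own set of genes. When amino acids run short, misfolded proteins fill the endoplasmic reticulum or ribosomes collide, kinases such as GCN2 and PERK phosphorylate the initiation factor eIF2α. Bulk translation then slows while translation of the transcription factor ATF4 goes up, and ATF4 with its C/EBP partners switches on genes for amino acid import, amino acid synthesis, tRNA charging and feedback, a programme called the integrated stress response (ISR). Electrophiles that modify KEAP1 free NRF2, unfolded cytosolic proteins free HSF1, and DNA damage stabilizes p53. Hypoxia-inducible factor, SREBP and the aryl hydrocarbon receptor set the genes of glycolysis, of sterol synthesis and of xenobiotic metabolism.

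The DNA that ATF4 and its partners recognize is shown first, because CHAC1, ATF3 and HERPUD1, all higher with MsOc3HBC, carry it before the RefSeq start searched. RefSeq promoter sequences of GRCh38.p14, from 250 bases before to 50 bases after the start, were at hand for 21 of the 25 genes that passed the test below and for 11861 of the 17309 tested genes. Only the first sequence listed for each gene was used, so other starts of the same gene, ATF3 included, were not searched. Whether the start searched was the one in use in these cells was not tested. The sequences were searched on both strands for the C/EBP-ATF response element TGATGNAA. It stood in 3 of the 11 higher genes with a sequence, in 0 of the 10 lower ones and in 1.62% of all tested genes with a sequence. Capitals mark the element, read as TTGCATCA where it lies on the opposite strand, and each line runs 5′ to 3′ on the strand of the gene. Positions count from the RefSeq start of the sequence table. The gene spans printed further on are those of the authors' count files, which for CHAC1, BHLHE40 and BHLHE41 begin before that start, so that the letters shown lie inside those spans.
CHAC1, chr15:40953236-40953295, element at -209: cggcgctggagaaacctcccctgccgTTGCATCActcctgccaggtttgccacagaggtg
ATF3, chr1:212565190-212565249, element at -191: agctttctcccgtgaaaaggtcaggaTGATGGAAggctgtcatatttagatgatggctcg
HERPUD1, chr16:56931940-56931999, element at -176: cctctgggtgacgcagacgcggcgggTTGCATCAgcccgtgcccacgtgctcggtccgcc
ASNS, chr7:97872443-97872502, element at -68: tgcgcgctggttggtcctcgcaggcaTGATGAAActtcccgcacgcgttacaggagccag
CARS1, chr11:3057408-3057435, element at -2: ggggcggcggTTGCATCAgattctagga
ASNS and CARS1 did not pass the test and are shown, after their values were seen, as members of gene lists in which the element is common. The element stood in 6 of the 16 cytosolic aminoacyl-tRNA synthetase genes with a sequence (37.5%) and in 3 of the 13 genes of amino acid and one-carbon synthesis (23.1%). It stood in 4 of 16 amino acid transporters (25%), in 2 of 17 ISR regulators (11.8%) and in 0 of 11 stress brakes and secreted factors, the list that holds SESN2 and STC2. BHLHE40 and BHLHE41, both lower with MsOc3HBC, encode repressors that bind the E-box CACGTG, and each carries an E-box before its RefSeq start. An E-box stood in 10.0% of all tested genes with a sequence, in 2 of the 10 lower genes and in 1 of the 11 higher ones, HERPUD1, at -159 and beside the element shown above. Capitals mark the E-box.
BHLHE40, chr3:4979187-4979223, E-box at -245: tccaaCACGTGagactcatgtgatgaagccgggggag
BHLHE41, chr12:26125054-26125111, E-box at -48: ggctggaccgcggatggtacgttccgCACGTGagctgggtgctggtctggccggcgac
The cAMP response element TGACGTCA stood in 0 of the 21 called genes and in 3.32% of all, the antioxidant core TGACNNNGC in 2 and 14.9%, the sterol response element TCACNCCAC in 1, TIPARP, and 1.08%, and the ER stress element in 0 and 0.118%. A match is only a run of letters in this window, and no binding was measured here.

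The libraries held between 28056929 and 62205366 counts on genes, the smallest being replicate 3 of MsOc3HBC, and 98.44 to 98.69% of the counts of each of the 6 lay on protein-coding genes. All 10 markers of the HEK293 lineage were detected in the 6 libraries, from PAX2, a kidney transcription factor, at 2.00 to 3.83 CPM (counts scaled by the library total, here without further scaling factors) to the filament protein VIM at 232 to 277 CPM. Of 14 markers of other cell types, UMOD, AQP2 and INS had 0 counts in all 6, and the summed level of the 14 was 26.1 to 35.5 CPM with DMSO and 21.0 to 31.1 CPM with MsOc3HBC, COL1A1 alone making up 18.5 to 33.2 CPM. On the first principal component, which held 47.7% of the variance of log2 levels, MsOc3HBC replicate 3 lay at 52 and the other 5 libraries between -14.17 and -4.68. On the second component, with 20.6% of the variance, MsOc3HBC replicate 1 lay at -30 and the others between -4.67 and 20.01. Replicate 1 of MsOc3HBC also had the highest share of mitochondrial counts, 3.505%. Calls and list medians that turn on MsOc3HBC replicate 3 are also given without it. The chi-square per gene between replicates was 5.91 to 58.5, where sampling alone gives 1, so no replicates agreed within sampling noise.

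Few transcripts passed the main test with MsOc3HBC, and genes of the ISR and of cysteine and glutathione metabolism were among those that rose. CHAC1, which breaks down glutathione, rose 6.30-fold, JDP2 3.05-fold and the cystine importer SLC7A11 2.99-fold, while the transcriptional repressors BHLHE40 and BHLHE41 each fell 2.11-fold. With edgeR's quasi-likelihood test and Benjamini-Hochberg adjustment over all 17309 genes, 25 genes had an adjusted p under 0.05, which is 0.144% of those tested. Of these, 13 were higher (0.0751%) and 12 lower (0.0693%) with MsOc3HBC. DESeq2 called 150 genes on the same libraries, the 25 among them. In all 25 the 3 MsOc3HBC libraries lay entirely to one side of the 3 DMSO libraries. This separation was also seen for 9.44% of all tested genes in the upward and for 9.01% in the downward direction. Beyond a log2 fold change of 1 there were 9 of the 25, CHAC1, ASNSP1, ULBP1, JDP2, SLC7A11 and SLC6A9 upward and PPP1R3G, BHLHE40 and BHLHE41 downward.

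The median log2 fold change of all tested genes was 0.01, the median standard error 0.13, and for 15419 genes (89.1%) the 95% confidence interval lay within 1 of 0 on the log2 scale. At the threshold of the study's methods (adjusted p below 0.5, log2 fold change past 1 either way) edgeR gave 79 genes, 63 higher and 16 lower. These were all genes past that fold change, so the limit on p removed none. DESeq2, which the study used, gave 15 here at this threshold, and 11 at an adjusted p under 0.05. Of these 79, 65 had a mean level under 1 CPM and 34 were protein-coding, so that most of them rest on small counts. Without replicate 3 of MsOc3HBC the test at 0.05 called 77 of 17298 genes, 37 higher and 40 lower, among them all 25. Without DMSO replicate 1 it called 6, without DMSO replicates 2 or 3 it called 10 and 11, and without MsOc3HBC replicate 1 it called 10, all of them among the 25. Without MsOc3HBC replicate 2 it called 22, of which 16 were among the 25. Of the fits without 1 library, only those without MsOc3HBC replicate 2 or 3 called genes outside the 25. CHAC1, JDP2, SLC7A11, BHLHE40, SPRY1 and ATF3 were called in all 6 fits that left out 1 library. Other settings ended some calls. Thinning to the smallest library ended those of ADM, ASNSP1, CXCR4, HERPUD1, NOG, R3HDM2, TIPARP, TXNIP and ULBP1 (edgeR adjusted p of 0.0566 to 0.108), and a fit of all 9 libraries those of ADM, BHLHE41, SHISA2 and TIPARP (0.0524 to 0.119). HERPUD1, R3HDM2, TIPARP and TXNIP were not called by limma-voom (adjusted p of 0.0532 to 0.0538). Removal of GC content and length trends ended the calls of ADM and HERPUD1 (0.074 and 0.0805), a filter of 10 counts in every library those of R3HDM2, TIPARP and TXNIP (0.0504 to 0.0563), and upper-quartile factors those of TIPARP and TXNIP (0.057 and 0.0611).

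**Figure D1:**
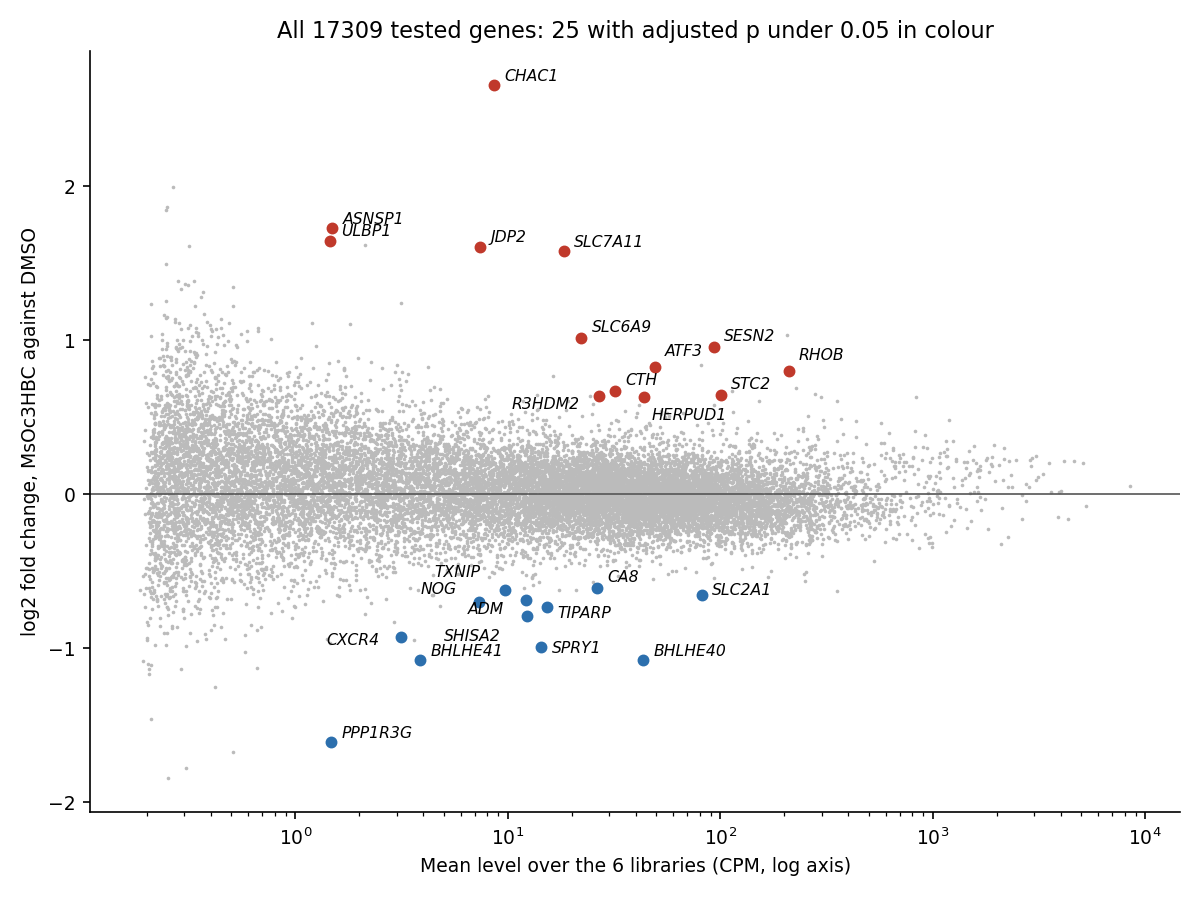
Log2 fold change of MsOc3HBC against DMSO (vertical axis) for each of the 17309 tested genes, against the mean level over the 6 libraries in CPM (horizontal log axis). The 13 genes that rose are red and the 12 that fell are blue, while genes at low levels scatter widely without passing the test.

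Some genes just missed the threshold. Next by p after the 25 came CABLES1, DDIT3, PLK1, NUPR1 and ZHX2, with adjusted p of 0.05 to 0.0656. CABLES1, a partner of cyclin-dependent kinases, measured 56.8, 56.7 and 58.2 CPM with DMSO and 36.9, 41.6 and 38.6 CPM with MsOc3HBC, replicates 1 to 3 in order here and below. ZHX2, a zinc finger and homeobox repressor, measured 14.2, 14.4 and 14.5 CPM against 9.27, 10.2 and 8.65 CPM. RBM14, an RNA-binding coactivator that DESeq2 called, measured 195, 206 and 211 CPM against 138, 152 and 143 CPM (edgeR adjusted p = 0.0735). The groups did not overlap in any of these 3.

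Among the transcription factors of the ISR, JDP2 and ATF3 rose. JDP2 (chr14:75427716-75474111, GRCh38, plus strand) is a bZIP protein that represses AP-1 and ATF sites. It measured 3.76, 3.33 and 3.92 CPM with DMSO and 10.3, 11.2 and 12.1 CPM with MsOc3HBC. The lowest MsOc3HBC library was thus far above the highest DMSO library, at a log2 fold change of 1.61 ± 0.12 (SE, n = 3 per group; edgeR adjusted p = 0.000358). ATF3, a stress-induced bZIP factor, measured 36.8, 35.7 and 33.5 CPM with DMSO and 62.4, 62.7 and 63.1 CPM with MsOc3HBC. Its 3 treated libraries were almost identical, and the log2 fold change was 0.83 ± 0.09 (edgeR adjusted p = 0.00342). ATF4 itself, whose control is mainly translational, measured 604, 663 and 691 CPM against 957, 927 and 1150 CPM. All treated libraries lay above all controls for ATF4, but its log2 fold change of 0.63 ± 0.11 did not pass (edgeR adjusted p = 0.0735). It was called by DESeq2 (adjusted p = 4.58e-05) and by edgeR without replicate 3 of MsOc3HBC (0.00903). Without any other single library ATF4 did not pass (edgeR adjusted p of 0.0551 to 0.443).

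DDIT3, which encodes the pro-apoptotic partner CHOP, measured 2.95, 3.01 and 3.11 CPM with DMSO and 5.26, 4.76 and 6.19 CPM with MsOc3HBC. Its adjusted p was 0.05 in the edgeR test, just outside the threshold, the groups did not overlap, and the gene overlaps MARS1, so that part of its counts may belong there. NUPR1, a small stress-induced nuclear protein, had 0.744, 1.10 and 1.18 CPM against 2.67, 2.33 and 4.72 CPM, a log2 fold change of 1.62 ± 0.28 with an edgeR adjusted p of 0.0645. CEBPG, a C/EBP partner of ATF4, had 57.6, 55.3 and 51.7 CPM against 75.7, 76.5 and 84.6 CPM (log2 fold change 0.52 ± 0.09, edgeR adjusted p = 0.0735). These 3 genes were called without MsOc3HBC replicate 3 (adjusted p of 0.0299, 0.0271 and 0.0262). DDIT3 was also called without MsOc3HBC replicate 2 (edgeR adjusted p = 0.0412), but not without any other single library (0.234 to 0.317). In the list of 20 ISR regulators as a whole, 2 rose and none fell, 9 were higher and 1 lower at an unadjusted p under 0.05 (background 6.14 and 4.78% of all genes), and the median log2 fold change was 0.07 beside 0.01 for all genes. Without MsOc3HBC replicate 3, 6 of the 20 were called higher (37 of all 17298 genes in that fit) and the median was 0.15. In 10 of the 20 all treated libraries lay above all controls (9.44% of all genes). TRIB3, a pseudokinase that restrains ATF4, measured 15.7, 17.8 and 18.3 CPM against 16.6, 17.7 and 17.9 CPM, a difference of 0.01 ± 0.10. The kinases and their co-activator gave log2 fold changes of 0.06 for EIF2AK3 (PERK), -0.04 for EIF2AK4 (GCN2) and -0.23 for GCN1, none of which passed.

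Cystine import, cysteine synthesis and glutathione breakdown each had 1 gene that rose. CHAC1 (chr15:40952962-40956519, plus strand) encodes the γ-glutamylcyclotransferase that cleaves glutathione in the cytosol. It measured 2.30, 2.39 and 2.38 CPM with DMSO and 13.8, 14.2 and 16.7 CPM with MsOc3HBC, a log2 fold change of 2.65 ± 0.12 and the smallest adjusted p of all genes (edgeR, 4.12e-06). SLC7A11 (chr4:138164097-138242349, minus strand) encodes the cystine and glutamate exchanger xCT. Its levels of 10.5, 8.73 and 8.56 CPM rose to 26.3, 33.0 and 23.1 CPM, at a log2 fold change of 1.58 ± 0.14 (edgeR adjusted p = 0.00151). The partner chain SLC3A2, without which xCT does not reach the membrane, measured 262, 272 and 280 CPM against 294, 298 and 329 CPM and did not pass (log2 fold change 0.18 ± 0.09, edgeR adjusted p = 0.503). CTH, the lyase that makes cysteine from cystathionine, measured 23.7, 25.2 and 25.2 CPM against 37.0, 38.2 and 42.4 CPM. It rose by 0.67 ± 0.10 on the log2 scale (edgeR adjusted p = 0.0243), though this call was lost in 4 of the 6 fits without 1 library, those without any single DMSO library or without MsOc3HBC replicate 1 (highest adjusted p 0.231).

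No gene of glutathione synthesis passed. Of the 17 tested genes of glutathione turnover, CHAC1 and SLC7A11 rose and none fell, and the median was 0.05. Replicate 3 of MsOc3HBC set the sign of that median, which was -0.03 without it, with 7 of 17 genes above 0 in place of 12. GCLM, a subunit of the rate-limiting ligase, measured 52.8, 41.5 and 42.3 CPM with DMSO and 44.7, 49.1 and 51.2 CPM with MsOc3HBC, so that the groups overlapped. GSR, the glutathione reductase, had a log2 fold change of -0.09 ± 0.09 and CHAC2, the constitutive relative of CHAC1, one of -0.07.

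Among transporters of amino acids SLC6A9 also rose, the glycine transporter GlyT1. Its levels were 12.8, 14.6 and 16.8 CPM with DMSO and 31.0, 31.4 and 26.6 CPM with MsOc3HBC (log2 fold change 1.01 ± 0.12, edgeR adjusted p = 0.00696), with the call lost without DMSO replicate 1 (0.0991) or MsOc3HBC replicate 1. SLC6A9 overlaps CCDC24 and may share counts with it. The other members were mixed. Of 21 transporters 2 rose and none fell, 4 were higher and 5 lower at an unadjusted p under 0.05 (6.14 and 4.78% of all genes), and the median was 0.04, which turned to -0.04 without MsOc3HBC replicate 3. SLC1A4, a carrier of alanine, serine and cysteine, measured 11, 11.9 and 11 CPM against 15, 15.9 and 17 CPM (edgeR adjusted p = 0.117). At the other end, the taurine transporter SLC6A6 had the lowest log2 fold change of the list, -0.47 ± 0.18, with 32.6, 31.7 and 30.1 CPM against 24.9, 27.9 and 14.8 CPM, the last being replicate 3. SLC7A5, the leucine carrier LAT1, measured 528, 551 and 566 CPM against 567, 619 and 514 CPM and overlapped.

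In amino acid and one-carbon synthesis CTH alone passed of 20 genes, while 8 were higher and 2 lower at an unadjusted p under 0.05 (6.14 and 4.78% of all genes) and the median was 0.16, or 0.09 without MsOc3HBC replicate 3. ASNS, which makes asparagine and is a classical target of ATF4, had the highest log2 fold change of the list at 0.69 ± 0.15, with 169, 166 and 186 CPM against 251, 230 and 360 CPM. The treated libraries all lay above the controls, replicate 3 far above the other 2, and the edgeR adjusted p was 0.144. MTHFD2, the mitochondrial folate enzyme, measured 225, 211 and 208 CPM against 279, 291 and 343 CPM (0.50 ± 0.10). PSAT1 of serine synthesis measured 323, 295 and 307 CPM against 390, 409 and 497 CPM (0.49 ± 0.11). ASNS, MTHFD2 and PSAT1 passed together with CTH when MsOc3HBC replicate 3 was left out, with edgeR adjusted p of 0.0242, 0.0242 and 0.0341. In that fit 37 of all 17298 genes were called higher. ASNS did not pass without any other single library (edgeR adjusted p of 0.0551 to 0.606). PHGDH, the first enzyme of the serine pathway, overlapped between the groups at 571, 663 and 690 CPM against 697, 665 and 861 CPM. ASNSP1, a transcribed pseudogene of ASNS, rose from 0.678, 0.703 and 0.647 CPM to 2.20, 1.70 and 3.02 CPM (log2 fold change 1.73 ± 0.23, edgeR adjusted p = 0.0148). It is near-identical to ASNS in parts, so its counts are uncertain, and the call was lost without any single DMSO library or MsOc3HBC replicate 1 (highest adjusted p 0.182).

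The enzymes that charge tRNAs gave no call with edgeR. Of the 20 cytosolic aminoacyl-tRNA synthetases 3 were higher at an unadjusted p under 0.05 (6.14% of all genes) and 1, CARS1, was called by DESeq2. In this list 14 had a log2 fold change above 0, in 9 all treated libraries lay above all controls (9.44% of all genes), in 0 below (9.01%), and the median was 0.11. CARS1, for cysteine, was the highest at 0.39 ± 0.09, with 86.0, 86.6 and 87.4 CPM against 110, 108 and 122 CPM (edgeR adjusted p = 0.177). VARS1, for valine, was the lowest at -0.28 ± 0.13. Of the 17 mitochondrial synthetases 2 were lower at an unadjusted p under 0.05 (4.78% of all genes), DESeq2 called 0, 5 lay above 0, and in 5 all treated libraries lay below all controls (9.01%), for a median of -0.06. The difference between the 2 lists was not tested.

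Of the 16 tested stress brakes and secreted factors 2 rose and 1 fell. At an unadjusted p under 0.05, 8 were higher and 3 lower (6.14 and 4.78% of all genes), and the median was 0.20. SESN2, which restrains mTORC1 when leucine is short, measured 59.1, 66.5 and 64.5 CPM with DMSO and 121, 131 and 115 CPM with MsOc3HBC, and rose by 0.95 ± 0.10 on the log2 scale (edgeR adjusted p = 0.00201, and 0.053 without DMSO replicate 1). SESN1 and SESN3 had log2 fold changes of 0.05 and 0.07. STC2, a secreted glycoprotein of calcium and phosphate balance, rose from 83.3, 76.6 and 75.4 CPM to 123, 127 and 117 CPM (0.64 ± 0.09, edgeR adjusted p = 0.0201). ADM2, a peptide of the calcitonin family, had the highest log2 fold change of the list at 1.99 ± 0.40, from 0.131, 0.0669 and 0.113 CPM to 0.498, 0.293 and 0.491 CPM. STC1, the paralog of STC2, had the lowest at -1.78 ± 0.33, from 0.503, 0.485 and 0.437 CPM to 0.181, 0.110 and 0.113 CPM. Neither passed (edgeR adjusted p of 0.117 and 0.0919), and both rest on few counts. GDF15, a stress cytokine, measured 0.416, 0.401 and 0.550 CPM against 0.861, 0.714 and 0.831 CPM (adjusted p = 0.304). STC2 kept its call only without MsOc3HBC replicate 3 of the 6 libraries left out in turn (highest adjusted p 0.25).

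TXNIP, an arrestin-like protein that binds thioredoxin and curbs glucose uptake, fell. It measured 11.6, 12 and 11.8 CPM with DMSO and 7.79, 7.56 and 7.63 CPM with MsOc3HBC, with very little spread in either group (log2 fold change -0.62 ± 0.10, edgeR adjusted p = 0.0483). Its relative ARRDC4 measured 17.3, 15.7 and 14.4 CPM against 10.9, 11.5 and 10.5 CPM (-0.52 ± 0.11, adjusted p = 0.122). Like STC2, TXNIP kept its call in 1 of the 6 fits without 1 library, the one without MsOc3HBC replicate 3 (highest adjusted p 0.414).

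Of the unfolded protein response in the endoplasmic reticulum only HERPUD1 passed among 23 tested genes, whose median was 0.08, or 0.015 without MsOc3HBC replicate 3. HERPUD1 encodes a membrane protein of the degradation machinery, and its levels were 35.0, 33.3 and 34.3 CPM with DMSO and 48.5, 51.0 and 59.6 CPM with MsOc3HBC (0.63 ± 0.10, edgeR adjusted p = 0.0483). The call was kept only without MsOc3HBC replicate 3 (highest adjusted p otherwise 0.399). DNAJB9, a cochaperone, had a log2 fold change of 0.54 ± 0.13 and XBP1, the factor spliced by IRE1, one of 0.34 ± 0.10, and neither passed. HSPA5, the chaperone BiP, measured 851, 857 and 863 CPM against 808, 847 and 892 CPM, a log2 fold change of -0.01 ± 0.09.

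**Figure D2:**
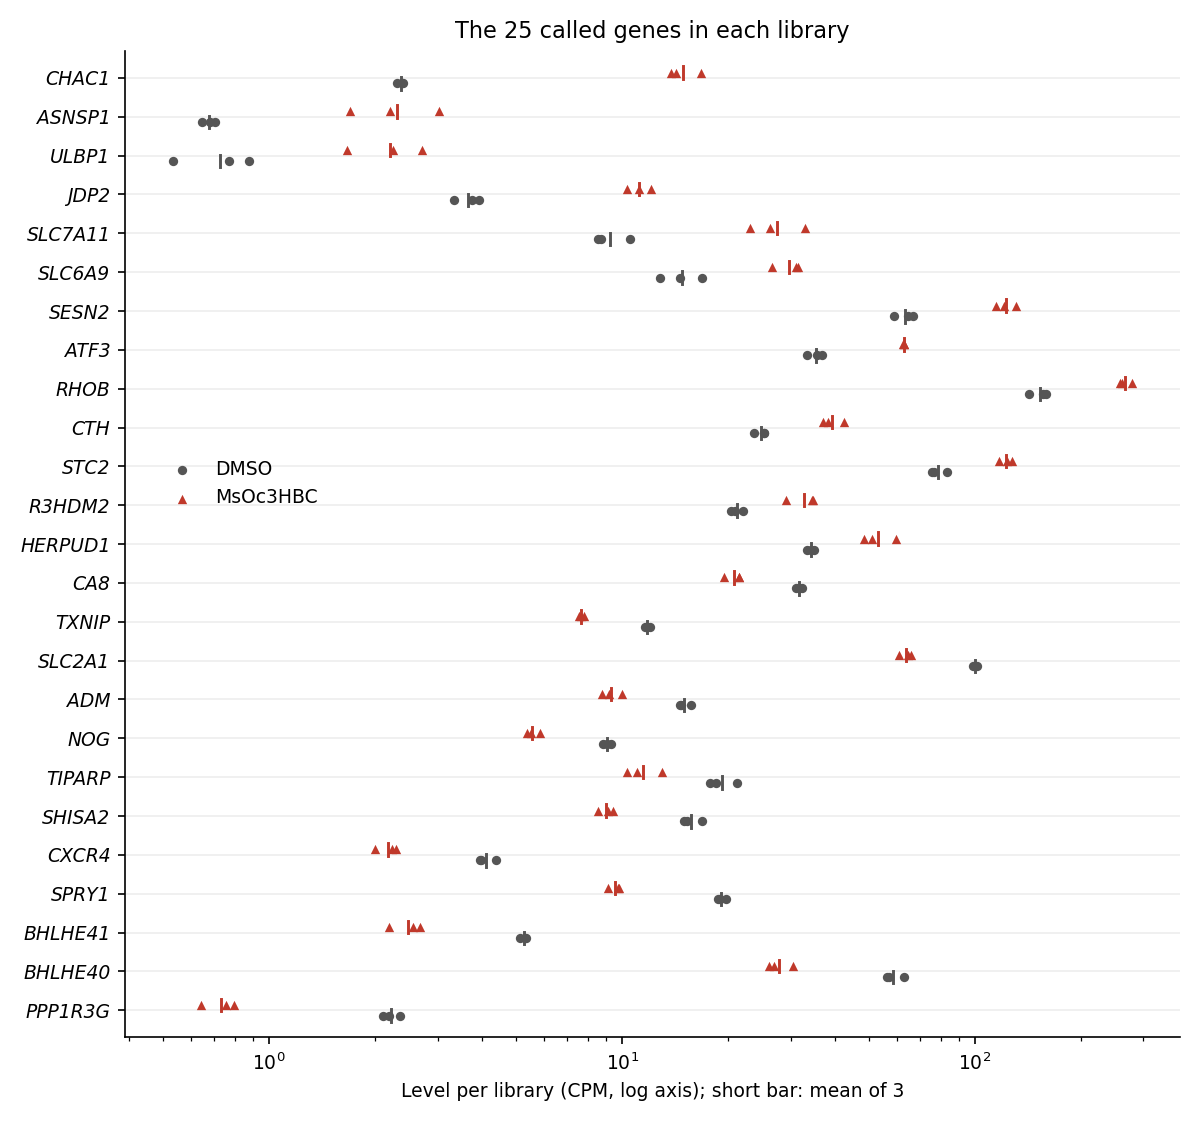
Level in CPM (horizontal log axis) of the 25 genes with an adjusted p under 0.05 in each library, DMSO as grey circles and MsOc3HBC as red triangles, with a short bar at the mean of 3. No gene has a treated library inside the range of its controls, and the genes are ordered by log2 fold change from 2.65 for CHAC1 to -1.61 for PPP1R3G.

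The remaining genes that rose belong to other groups. RHOB, a small GTPase induced early by many stresses, measured 142, 159 and 156 CPM against 258, 278 and 261 CPM (0.80 ± 0.09, edgeR adjusted p = 0.00516, and 0.0962 without DMSO replicate 1). Of the 23 genes in the immediate early list RHOB alone passed, 6 were higher and 5 lower at an unadjusted p under 0.05 (6.14 and 4.78% of all genes), and the median was -0.06. This list does not hold ATF3, which rose and was counted with the ISR regulators. Without MsOc3HBC replicate 3, RHOB, JUN and KLF6 were called higher (adjusted p of 0.00113, 0.00299 and 0.0478), as were 37 of all 17298 genes in that fit. JUN measured 369, 369 and 358 CPM against 523, 562 and 436 CPM, and FOS 1.03, 1.37 and 1.21 CPM against 0.884, 0.659 and 0.944 CPM, so that the 2 partners of AP-1 had opposite signs, neither passing. ULBP1, a surface ligand of the receptor NKG2D of natural killer cells, rose from 0.875, 0.769 and 0.534 CPM to 2.24, 2.71 and 1.66 CPM (1.65 ± 0.24, edgeR adjusted p = 0.0243). Its relative ULBP3 had a log2 fold change of -0.40 ± 0.16, and MICA and MICB had -0.08 and 0.03. R3HDM2 measured 20.9, 22 and 20.4 CPM against 34.5, 34.7 and 29.1 CPM (0.64 ± 0.10, edgeR adjusted p = 0.0483). Of these, ULBP1 and R3HDM2 kept their call only without MsOc3HBC replicate 3 (highest adjusted p 0.182 and 0.33).

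Among the genes that fell, the paralogous repressors BHLHE40 (DEC1) and BHLHE41 (DEC2) of the circadian clock both fell. BHLHE40 (chr3:4979116-4985323, plus strand) measured 62.7, 56.9 and 56.4 CPM with DMSO and 30.4, 26 and 26.9 CPM with MsOc3HBC (log2 fold change -1.08 ± 0.10, edgeR adjusted p = 0.00154). It had the lowest log2 fold change of all genes with a mean over 1000 counts. BHLHE41 measured 5.30, 5.35 and 5.13 CPM against 2.67, 2.55 and 2.19 CPM (-1.08 ± 0.13, edgeR adjusted p = 0.00696), a call lost without DMSO replicate 1 (0.0991) or 2 and with all 9 libraries in 1 fit (0.0785). The rest of the clock list did not follow. Of its 16 tested genes 8 lay above and 8 below 0, the median was -0.04, or 0.007 without MsOc3HBC replicate 3, PER1 and PER2 had log2 fold changes of -0.15 and -0.12, and BMAL1 and CLOCK had 0.06 each. NR1D2, the nuclear receptor REV-ERBβ, was the highest at 0.24 ± 0.11. BHLHE41 overlaps SSPN, and BHLHE40 an antisense transcript, and without a stated strand setting their reads cannot be told apart.

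PPP1R3G (chr6:5084581-5089487, plus strand), a subunit that brings protein phosphatase 1 to glycogen, fell most. It measured 2.10, 2.19 and 2.35 CPM with DMSO and 0.793, 0.641 and 0.755 CPM with MsOc3HBC, 3.06-fold lower (log2 fold change -1.61 ± 0.18, edgeR adjusted p = 0.00428, and 0.0596 without DMSO replicate 1). Of 21 glycogen genes it alone passed. Glycogen synthase GYS1 and the phosphorylase PYGB had log2 fold changes of -0.32 and -0.25, and the sister subunit PPP1R3E had the highest of the list at 0.19.

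SPRY1, a feedback inhibitor of receptor tyrosine kinase signalling, fell from 19.7, 18.9 and 18.7 CPM to 9.81, 9.76 and 9.10 CPM (-0.99 ± 0.10, edgeR adjusted p = 0.00201). It was the only call among 14 tested genes of MAPK feedback, whose median was -0.035, or -0.10 without MsOc3HBC replicate 3, where SPRY2 had a log2 fold change of -0.02, SPRED1 and SPRED2 -0.29 each, and SPRED3 the highest at 0.42 ± 0.20. CXCR4, the receptor of the chemokine CXCL12, fell from 3.96, 4.38 and 3.98 CPM to 2.29, 2.00 and 2.23 CPM (-0.93 ± 0.14, edgeR adjusted p = 0.0271). NOG, the secreted BMP antagonist noggin, fell from 8.84, 9.32 and 9.06 CPM to 5.51, 5.84 and 5.36 CPM (-0.70 ± 0.11, adjusted p = 0.035). SHISA2, which holds Wnt and FGF receptors back in the endoplasmic reticulum, fell from 16.8, 15 and 15.3 CPM to 9.13, 9.41 and 8.53 CPM (-0.79 ± 0.10, adjusted p = 0.0139). CA8, a carbonic anhydrase relative without catalytic activity, fell from 32.3, 31.8 and 31.0 CPM to 19.4, 21.5 and 21.4 CPM (-0.61 ± 0.09, adjusted p = 0.0352). The calls of CXCR4, NOG and CA8 were kept only without MsOc3HBC replicate 3 and that of SHISA2 only without MsOc3HBC replicates 2 or 3, with highest adjusted p of 0.244, 0.317, 0.317 and 0.121.

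TIPARP, a mono-ADP-ribosyltransferase induced by the aryl hydrocarbon receptor, fell from 21.1, 18.5 and 17.8 CPM to 11, 13 and 10.3 CPM (-0.74 ± 0.12, edgeR adjusted p = 0.0483, at most 0.316 without 1 library). CYP1A1, the receptor's best-known target, measured 0.744, 0.652 and 0.874 CPM against 0.227, 0.165 and 0.378 CPM. Its log2 fold change of -1.68 ± 0.31 did not pass (edgeR adjusted p = 0.0925). The adjusted p was 0.0311 without MsOc3HBC replicate 3 and 0.139 to 0.473 without any other single library. CYP1B1 measured 5.52, 4.95 and 4.05 CPM against 2.33, 3.22 and 1.74 CPM (-0.95 ± 0.20, adjusted p = 0.139). The receptor AHR itself had a log2 fold change of 0.13. Of the 9 tested genes of the list TIPARP alone passed, and TIPARP, CYP1A1 and CYP1B1 were the 3 lower at an unadjusted p under 0.05 (4.78% of all genes).

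Genes of hypoxia and glycolysis had the lowest median of the 40 gene lists, and SLC2A1 and ADM fell. Of 29 tested genes 27 had a log2 fold change below 0, 16 were lower and 0 higher at an unadjusted p under 0.05 where the background downward is 4.78%, and in 20 all treated libraries lay below all controls (9.01% of all genes). The median was -0.27 beside 0.01 for all genes, and it ranged from -0.30 to -0.21 over all alternatives. SLC2A1, the glucose transporter GLUT1, fell from 98.8, 100 and 101 CPM to 60.7, 65.7 and 64.5 CPM (-0.65 ± 0.09, edgeR adjusted p = 0.0142). ADM, the vasodilator adrenomedullin, fell from 15.7, 14.6 and 14.7 CPM to 8.77, 9.21 and 10.0 CPM (-0.69 ± 0.10, edgeR adjusted p = 0.032). With 1 of the 6 libraries left out in turn, the call of SLC2A1 was kept without MsOc3HBC replicates 2 or 3 and that of ADM only without replicate 3 (highest adjusted p otherwise 0.169 and 0.254), and ADM also lost its call in 3 of the other settings given above.

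Other members of this list carry smaller values. EGLN3, a prolyl hydroxylase that marks hypoxia-inducible factor for degradation, measured 21.8, 20.3 and 20.9 CPM against 12.6, 12.7 and 15.6 CPM (-0.62 ± 0.11, edgeR adjusted p = 0.0735). PFKFB3, which makes the activator of phosphofructokinase, measured 108, 105 and 103 CPM against 81.0, 80.3 and 70.9 CPM (-0.45 ± 0.09, adjusted p = 0.12). EGLN3, PFKFB3, EGLN1 and PGAM1 passed beside SLC2A1 and ADM when MsOc3HBC replicate 3 was left out, where 40 of all 17298 genes were called lower. Enzymes of the lower glycolytic chain were nearer to 0, with log2 fold changes of -0.05 for GAPDH, -0.02 for TPI1 and -0.10 for PGK1. VEGFA, a target that ATF4 also acts on, measured 48.5, 52.4 and 49.2 CPM against 63.4, 54.6 and 49.7 CPM and overlapped.

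Sterol genes and mitotic genes had low medians too, without a call by edgeR, while DESeq2 called 2 sterol and 3 mitotic genes. Of 23 sterol genes 21 lay below 0, 9 were lower and 0 higher at an unadjusted p under 0.05 (4.78 and 6.14% of all genes), and the median was -0.20. INSIG1, the brake of SREBP processing, measured 181, 175 and 177 CPM against 134, 134 and 149 CPM (-0.36 ± 0.09). Of 14 genes of fatty acid synthesis 13 lay below 0 with a median of -0.16, and FASN was the lowest at -0.35 ± 0.21. Of 20 mitotic genes 18 lay below 0, 9 were lower and 0 higher at an unadjusted p under 0.05 (4.78 and 6.14%), and the median was -0.22. In RNA from a whole culture, fewer cells in mitosis and less of these transcripts per cell cannot be told apart. PLK1, a kinase of mitotic entry, measured 272, 308 and 321 CPM against 198, 206 and 205 CPM (-0.57 ± 0.10, edgeR adjusted p = 0.0597), and KIF20A, a kinesin of cytokinesis, 72.6, 67.9 and 67.9 CPM against 48.5, 51.5 and 47.2 CPM (-0.50 ± 0.09, adjusted p = 0.0735). Without MsOc3HBC replicate 3, 3 sterol genes and 5 mitotic genes passed, all lower, beside 40 lower of all 17298 genes in that fit. Genes of DNA replication were closer to 0 with a median of -0.09, and RRM2, the small subunit of ribonucleotide reductase, was the lowest at -0.30 ± 0.09.

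The lists for NRF2, DNA base repair, ribosome collision and p53 gave 0 calls with edgeR and with limma-voom. None of these lists holds SLC7A11 or SESN2, which both rose and were counted with glutathione turnover and with stress brakes. Of 21 genes of the NRF2 programme 0 reached an unadjusted p under 0.05, DESeq2 called 0, and the median was -0.05. HMOX1, haem oxygenase 1, measured 26.3, 26.7 and 27.3 CPM against 24.1, 22.6 and 28.5 CPM, with a 95% interval of the log2 fold change from -0.33 to 0.13. NQO1 measured 8.32, 9.13 and 8.43 CPM against 8.27, 7.40 and 9.52 CPM, with an interval from -0.32 to 0.22. Of 15 genes that repair alkylated bases 0 reached an unadjusted p under 0.05 and DESeq2 called 0. MPG, the glycosylase for alkylated purines, measured 46.5, 53.5 and 57.0 CPM against 49.6, 49.5 and 64.3 CPM. Of 19 genes of ribosome collision and its quality control 1 was higher at an unadjusted p under 0.05 (6.14% of all genes) and DESeq2 called 0. NEMF, which tags stalled chains, was the highest at 0.40 ± 0.13. Among 22 targets of p53, 3 were higher and 1 lower at an unadjusted p under 0.05 (6.14 and 4.78% of all genes) and DESeq2 called 1. CDKN1A, the cell cycle inhibitor p21, measured 25.7, 27.0 and 25.9 CPM against 26.3, 28.1 and 31.2 CPM, and GADD45A, which ATF4 also controls, was the highest at 0.50 ± 0.11. A value that missed the threshold does not show that these genes were the same in both groups.

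Heat shock genes gave 0 calls with edgeR, DESeq2 and limma-voom. Of 19 cytosolic chaperones and cochaperones 16 had a log2 fold change below 0, 5 were lower and 1 higher at an unadjusted p under 0.05 (4.78 and 6.14% of all genes), and the median was -0.16. Without MsOc3HBC replicate 3, edgeR called 1 of them lower, HSPA8, the constitutive HSP70 (adjusted p = 0.0114), beside 40 of all 17298 genes in that fit. HSPA1A, inducible HSP70, measured 21.8, 18.7 and 19.9 CPM against 15.6, 17.0 and 15.3 CPM (-0.33 ± 0.10, edgeR adjusted p = 0.326). HSPB8, a small heat shock protein, was the highest at 0.36 ± 0.15.

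Some lists of short transcripts had their highest level in MsOc3HBC replicate 3. All 77 genes for ribosomal proteins had a log2 fold change above 0 with a median of 0.23, 8 were higher at an unadjusted p under 0.05 (6.14% of all genes), and edgeR and DESeq2 called 0. In 7 of the 77 all treated libraries lay above all controls, a share near the 9.44% of all genes. The median level of the list relative to the DMSO mean, on the log2(CPM + 1) scale, was 0.08 and -0.04 in MsOc3HBC replicates 1 and 2 and 0.55 in replicate 3. Without replicate 3 the median log2 fold change was 0.02. The nuclear genes of the respiratory chain followed the same pattern, with levels of -0.004, -0.05 and 0.38 and a median of 0.12 that became -0.01 without replicate 3. The proteasome list had levels of -0.07, -0.11 and 0.23, and the host genes of small nucleolar RNAs had 0.20, -0.04 and 0.39. The median exonic length was 2982 bases for ribosomal protein genes and 2711 bases for respiratory chain genes, beside 4222 bases for all tested genes. In replicate 3 the median level went from 0.12 in the fifth of genes with the shortest exons to -0.15 in the fifth with the longest, while in replicates 1 and 2 it went from 0.05 and -0.01 to 0.01 and 0.05. The part of depth, RNA quality or library preparation in this was not tested.

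**Figure D3:**
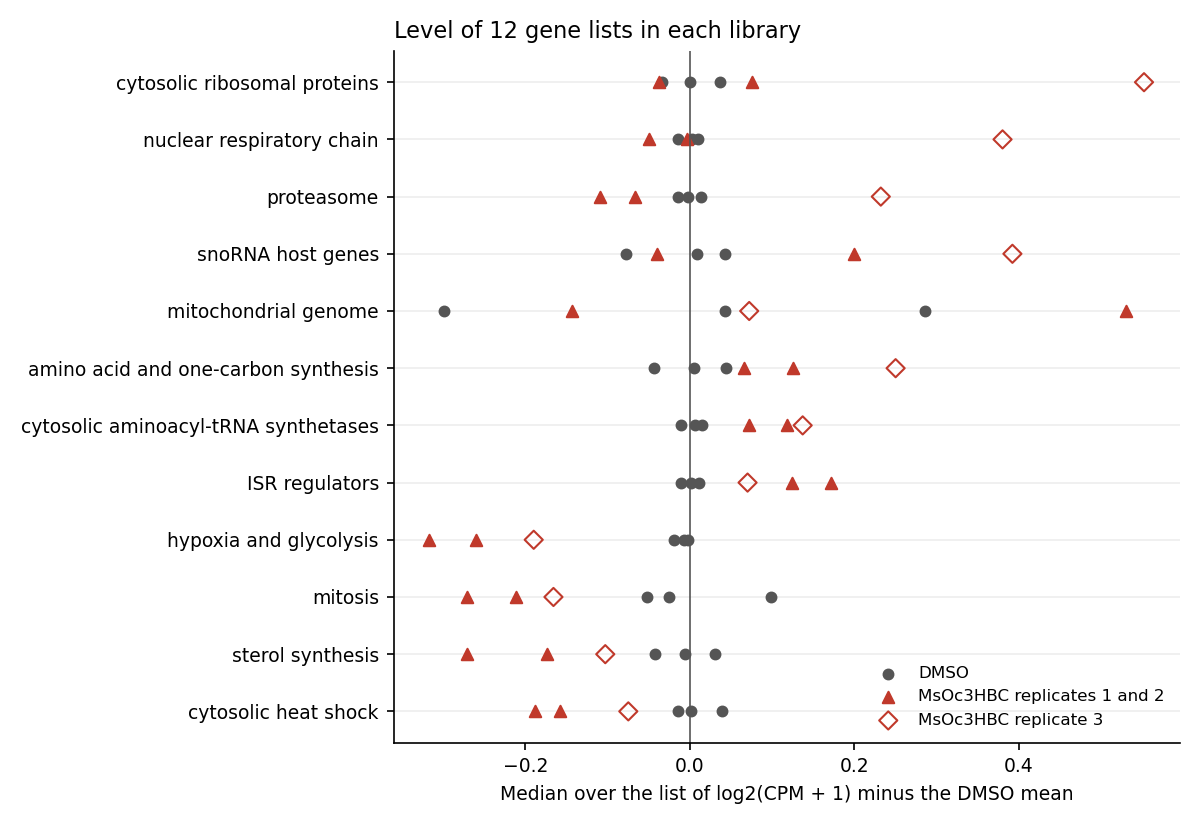
Median over a gene list of log2(CPM + 1) minus the DMSO mean (horizontal axis) in each of the 6 libraries, for 12 lists. Replicate 3 of MsOc3HBC (open diamonds) stands apart for ribosomal protein genes at 0.55 and respiratory chain genes at 0.38, while for hypoxia and glycolysis, mitosis, sterol synthesis and heat shock all 3 treated libraries lie below the 3 controls (circles).

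For the ISR regulators, amino acid synthesis and the cytosolic tRNA synthetases all 3 treated libraries lay above the 3 controls in the same measure, at 0.12, 0.17 and 0.07, at 0.13, 0.07 and 0.25, and at 0.07, 0.12 and 0.14. For hypoxia and glycolysis they lay below, at -0.32, -0.26 and -0.19. Transcripts of the mitochondrial genome, the shortest list with a median of 784 bases, were not separated, with levels from -0.30 to 0.29 in DMSO and of 0.53, -0.14 and 0.07 in MsOc3HBC, so that replicate 1 and not 3 was highest. MALAT1, a nuclear long noncoding RNA, had the highest log2 fold change of all genes with a mean over 1000 counts, 1.03 ± 0.27, yet its libraries overlapped at 107, 129 and 170 CPM against 368, 152 and 311 CPM (edgeR adjusted p = 0.244). Lists for mitochondrial chaperones, YAP targets, metallothioneins, tubulins, splicing factors, lysosomes, translation initiation, the interferon response and drug efflux held 0 calls with edgeR. DESeq2 called 1 gene each among tubulins, splicing factors and translation initiation, in the last EIF5B (DESeq2 adjusted p = 0.00791). The medians ran from -0.19 for efflux pumps to 0.03 for splicing factors. Without MsOc3HBC replicate 3 these 2 medians were -0.07 and -0.007.

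HBC530, the ligand without the reactive handle, was compared at the same 10 µM and 5 h, with the same 3 DMSO libraries. These 25 genes were chosen for their response to MsOc3HBC, so that their values with HBC530 are given side by side. Against DMSO, HBC530 gave 3 calls among 17382 tested genes (0.0173%), and all 3, CHAC1, RHOB and ATF3, are among the 25. CHAC1 measured 2.29, 2.39 and 2.36 CPM with DMSO, 6.90, 6.29 and 6.56 CPM with HBC530 and 13.7, 14.2 and 16.6 CPM with MsOc3HBC when all 9 libraries were scaled together, so that the 3 groups formed 3 separate steps. RHOB went the other way in order, with 142, 159 and 155 CPM, then 361, 376 and 346 CPM with HBC530 and 256, 278 and 259 CPM with MsOc3HBC. STC2 measured 82.9, 76.4 and 74.8 CPM with DMSO, 75.4, 81.0 and 72.7 CPM with HBC530 and 122, 127 and 116 CPM with MsOc3HBC, and HBC530 overlapped DMSO. TXNIP measured 11.5, 11.9 and 11.7 CPM, then 8.06, 8.12 and 6.77 CPM with HBC530 and 7.73, 7.55 and 7.56 CPM with MsOc3HBC, so that both ligands lay below DMSO and overlapped each other.

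Tested directly, MsOc3HBC against HBC530 gave 0 calls among 17095 genes (0%) with edgeR, 1268 genes at an unadjusted p under 0.05, 65 calls with DESeq2 and 0 with limma-voom. Deviations of libraries with the same replicate number correlated at 0.202, 0.446 and 0.497 in these 2 groups. Those of different numbers ran from -0.543 to 0.349, and the 0.349 of MsOc3HBC 2 with HBC530 1 exceeded the 0.202 of number 1. Replicate 3 was the smallest library of each group, and its part in this was not tested. With the replicate as a block, which assumes that equal numbers pair, edgeR called 1932 genes, 11.3%. Of these, 818 were higher and 1114 lower with MsOc3HBC. Of the 25 genes 0 passed without the block and 17 with it, 16 of them further from DMSO with MsOc3HBC and 1, RHOB, nearer to it. The 25 were chosen on the same MsOc3HBC libraries. That choice favours both passing and lying further from DMSO, so nothing is concluded from these counts. CHAC1 differed between the ligands by 1.17 on the log2 scale (95% interval 0.91 to 1.43, edgeR adjusted p = 0.103, and 3.84e-05 with the block). SLC7A11 differed by 1.04 (0.67 to 1.4, adjusted p = 0.496, and 4.24e-05 with the block). JDP2 differed by 0.97 (0.67 to 1.27, adjusted p = 0.307, and 0.000143 with the block). STC2 differed by 0.68 (0.48 to 0.87, adjusted p = 0.227, and 3.84e-05 with the block), SESN2 by 0.66 (0.43 to 0.89) and SLC6A9 by 0.70 (0.40 to 1.00). RHOB was lower with MsOc3HBC than with HBC530 by a log2 difference of -0.45 (-0.64 to -0.25, adjusted p = 0.646, and 0.000293 with the block).

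**Figure D4:**
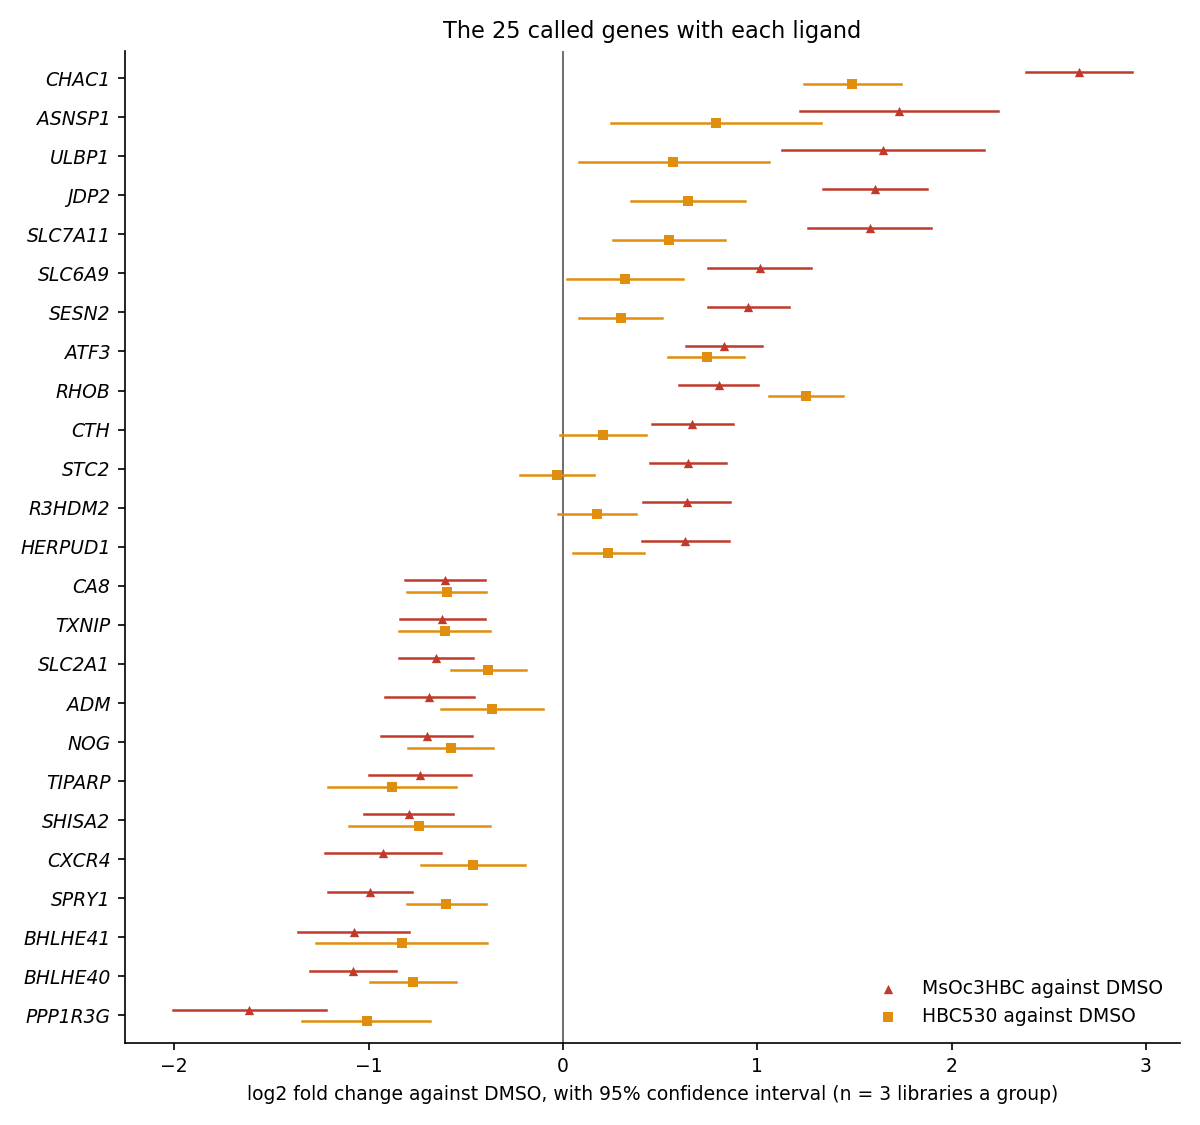
Log2 fold change against DMSO with its 95% confidence interval (horizontal axis) of the 25 genes, for MsOc3HBC (red triangles) and HBC530 (orange squares), 3 libraries a group with shared DMSO libraries. The genes were chosen on the red values, which lie further from 0 than the orange ones for 23 of 25 genes, RHOB and TIPARP being the exceptions.

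For 8 of the 25 genes the ligands did not pass the direct test with the block either, and their intervals without it follow. ATF3 differed by 0.09 (-0.09 to 0.28), TXNIP by -0.01 (-0.26 to 0.25), CA8 by -0.01 (-0.23 to 0.21), SHISA2 by -0.05 (-0.47 to 0.38), NOG by -0.12 (-0.36 to 0.12), BHLHE41 by -0.23 (-0.80 to 0.33), TIPARP by 0.15 (-0.24 to 0.54) and PPP1R3G by -0.60 (-1.04 to -0.16). BHLHE40 differed by -0.30 (-0.55 to -0.05, edgeR adjusted p = 0.646, and 0.0314 with the block). HSPA1A, which did not pass against DMSO, differed between the ligands by -0.76 (-0.97 to -0.54, adjusted p = 0.227, and 0.000143 with the block), with log2 fold changes against DMSO of 0.43 with HBC530 and -0.33 with MsOc3HBC. The list medians against DMSO with HBC530 were 0.13 for the ISR regulators, -0.21 for hypoxia and glycolysis, -0.17 for sterol synthesis and -0.10 for mitosis, and the difference of these medians between the ligands was not tested.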

How the data were processed

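Poly(A) RNA of HEK293T cells was made into libraries with the NEBNext Ultra II RNA kit and sequenced on a NovaSeq X Plus. Per the labels and methods, the authors used Trimmomatic 0.36 for trimming, STAR 2.5.2b for alignment against GRCh38, and featureCounts of Subread 1.5.2 for counting unique hits per gene. The deposited count files hold these raw counts of 57500 genes, with library totals from 28056929 to 62205366. Library size limits precision, most of all for genes with few counts, but not for these alone. Thinning to the smallest total kept 16 of the calls of the main test. It ended others, among them HERPUD1 (edgeR adjusted p = 0.0566). With all 9 libraries scaled together, HERPUD1 had mean levels of 34.0 CPM with DMSO and 52.7 CPM with MsOc3HBC. Annotation release, strand setting and pair counting are not given in the sources used here. The 2 deposited comparison tables hold the authors' DESeq2 fold changes, p-values and normalized counts and were not used. Gene names came from a current symbol table, which matched 56410 IDs.

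The 3 MsOc3HBC and 3 DMSO libraries were compared in R 4.3.3 with edgeR 4.0.16 (TMM factors, quasi-likelihood F test, no block), with Benjamini-Hochberg adjustment over all genes with a mean raw count over 10. Whether equal replicate numbers pair libraries was checked by correlating their deviations from the group means. For MsOc3HBC and DMSO this check showed no pairing (-0.119, 0.005 and 0.04), though with 3 libraries a group it cannot exclude one. For MsOc3HBC and HBC530 equal numbers gave 0.202, 0.446 and 0.497, number 1 lying below the 0.349 of an unequal pair. Alternatives were DESeq2 1.42.0, limma 3.58.1 (voom), RLE and upper-quartile factors, 3 other filters, all 9 libraries in 1 fit, the block, thinning to the smallest total, removal of GC content and length trends (splines with 5 degrees of freedom) and each library left out. The fits were tested on simulated data. The labels call the samples biological replicates without naming separate cultures, so p-values measure the spread between these samples.

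The genes, the 40 gene lists and the tests were chosen with earlier results of these data known. Named were all genes with an adjusted p under 0.05, the next 5 by p, the 5 with the smallest DESeq2 adjusted p that only DESeq2 called, the called, highest and lowest members of each list, the highest and lowest of genes with a mean over 1000 counts, and called genes whose promoter held a searched motif. Other list members were named after their values were seen, as examples of a role. The rule also covers 2 list members that are not reported here. Promoters were also searched for TGACGTCA, TGACNNNGC, TCACNCCAC and the ER stress element.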

Additional observations from a re-analysis of the deposited data

How the results depend on the processing

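Between MsOc3HBC and DMSO the check showed no pairing by replicate number, though 3 libraries a group cannot exclude it. The fit with the replicate as a block called 147 genes in place of 25, 21 in place of 9 beyond a log2 fold change of 1. All 25 genes remained called under DESeq2, RLE factors, filterByExpr, no filter and the block, 21 under limma-voom and 16 after thinning. The count at an adjusted p under 0.05 was 150 with DESeq2, 250 with no filter on low counts, 82 with GC content and length trends removed and the block, 16 after thinning, and 6 to 77 without 1 library. The 9 beyond 1 became 36 with no filter, 16 with the trends removed and the block, and 4 to 11 without 1 library. The 79 at the threshold of the methods became 31 with 10 counts in every library, 15 with DESeq2, 331 with no filter and 15 to 171 without 1 library, so this count rests on genes with few counts. For HBC530 against DMSO the 3 calls became 24 with DESeq2, 8 with the trends removed and 12 with the block added, 5 with all 9 libraries, limma-voom or upper-quartile factors, 52 with no filter, 16 with the block and 2 to 6 without 1 library. For MsOc3HBC against HBC530 the 0 calls became 65 with DESeq2, 444 with the trends removed and the block, 4 with all 9 libraries, 12 with no filter and 1932 with the block, and stayed 0 without any 1 library. The cause of these differences was not tested. Of the named genes' values, 11 changed sign: MT-CO1 (-0.11 with the trends removed, -0.125 with the block added, -0.006 with the block, and -0.243 to 0.174 without 1 library), RPSA (-0.002 with the trends removed and the block, and -0.115 to 0.131 without 1 library), and, without 1 library, HSPE1 (-0.01 to 0.218), PSMA2 (-0.01 to 0.38) and SREBF1 (-0.071 to 0.196). The other values of single genes kept their sign, with 96 losing and 81 gaining a call, and of the list medians 674 moved by less than the spread between libraries and 46 by more.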
